A study of Homo sapiens with 8 samples.

Results

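The 6 genes HNRNPC, HNRNPA2B1, RBMX, HNRNPA1, HNRNPK and HNRNPU encode heterogeneous nuclear ribonucleoproteins (hnRNPs), and each was taken by its gene name from the table of input RNA, with every transcript listed under it. They made up 6 of 33711 genes and 107 of 134605 transcripts in that table. HNRNPC had 33 transcripts, HNRNPA2B1 8, RBMX 12, HNRNPA1 14, HNRNPK 11 and HNRNPU 29. The cells were HCT116, a human colorectal cancer line, and received by jetPRIME either siRNA against YTHDF3 (si-YTHDF3), a cytoplasmic reader of N6-methyladenosine (m6A), or a negative control siRNA (NC). Each condition gave 2 libraries of fragmented total RNA (input), and the 4 input libraries are described here, while 4 libraries of m6A-precipitated RNA were not used here. Values are FPKM, fragments assigned to a transcript, scaled to its length and to the mapped total of the library, and a gene's value is the sum over its transcripts. FPKM do not keep the number of fragments, so depth is unknown and no counting interval is given.

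No label states that libraries of a condition came from separate cultures, so a p-value covers only the spread among the libraries at hand, which may be technical. The names of the si-YTHDF3 libraries match different siRNA sequences listed by the study, and a difference in siRNA between them is therefore possible. The numbers in these names may as well be replicate numbers, and no label says whether the siRNA differed. Differences were tested with limma on log2(FPKM + 1), a scale that understates changes of low values, over all genes or transcripts whose mean reached 1 FPKM, with Benjamini-Hochberg adjustment at 0.05. An exact permutation test of 2 against 2 libraries cannot go below p = 0.333, so none is given. Summed FPKM were 375087 and 383303 in the si-YTHDF3 libraries and 371121 and 371305 in the NC libraries. The targeted gene YTHDF3 had 2.53 and 3.25 FPKM in si-YTHDF3 libraries, against 25.9 and 11.96 FPKM in NC libraries (log2 fold change -2.27, SE 0.350, limma adjusted p = 0.135). Its groups did not overlap, and the adjusted p missed the threshold. With single libraries left out, the log2 fold change ran between -2.80 (without NC replicate 2) and -1.74 (without NC replicate 1). The 5 epithelial markers EPCAM, CDH1, KRT8, KRT18 and KRT19 lay between 25.6 and 837 FPKM in every library. The leukocyte marker CD14 and the fibroblast marker PDGFRB stayed at or below 0.119 FPKM, while PTPRC, CD3E, DCN, LUM and COL1A2 had no row and were not analysed here.

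As background, m6A weakens the pairing of adenosine with uridine inside RNA hairpins. A stretch that was paired can then open and be bound by a protein that does not touch the methyl group itself, which is known as an m6A switch. HNRNPC, which binds runs of uridines, and RBMX, also called hnRNP G, are known to bind RNA through such switches, and HNRNPA2B1 has been described as a nuclear m6A reader that assists the processing of primary microRNAs. HNRNPA1 regulates splicing and shuttles between nucleus and cytoplasm, HNRNPK binds C-rich RNA, and HNRNPU binds RNA attached to chromatin.

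The sequences before the annotated start sites are shown because the transcripts of HNRNPC and HNRNPK described here begin at different sites. RefSeq (GRCh38.p14) windows were matched for 5 of the 6 genes by symbol, 2 of them for HNRNPK, and HNRNPA1 was not matched. All 5 genes lie on the minus strand. Each sequence is the 150 bases before a start site, 5′ to 3′ on the gene's strand, with capitals marking 3 searched motifs. The motif CCAAT, a site of the factor NF-Y, reads as ATTGG where it lies on the other strand. The motif GGGCGG, known as the GC box, likewise reads as CCGCCC when it lies there. The core of the TATA box, TATAAA, reads there instead as TTTATA.
HNRNPC, chr14:21269443-21269592: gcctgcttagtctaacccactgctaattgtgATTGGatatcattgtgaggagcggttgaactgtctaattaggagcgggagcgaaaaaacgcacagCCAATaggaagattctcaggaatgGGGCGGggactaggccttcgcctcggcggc
HNRNPA2B1, chr7:26200747-26200896: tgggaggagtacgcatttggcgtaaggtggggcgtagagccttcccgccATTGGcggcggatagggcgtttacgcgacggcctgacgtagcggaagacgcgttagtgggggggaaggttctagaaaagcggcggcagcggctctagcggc
RBMX, chrX:136880726-136880875: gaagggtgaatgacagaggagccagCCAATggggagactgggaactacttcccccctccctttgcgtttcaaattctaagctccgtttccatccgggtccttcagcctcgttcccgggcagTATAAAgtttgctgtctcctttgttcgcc
HNRNPK, chr9:83980216-83980365: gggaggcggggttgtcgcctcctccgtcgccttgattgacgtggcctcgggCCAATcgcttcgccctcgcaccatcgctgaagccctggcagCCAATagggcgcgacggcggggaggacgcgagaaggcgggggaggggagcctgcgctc
HNRNPK, chr9:83980616-83980765: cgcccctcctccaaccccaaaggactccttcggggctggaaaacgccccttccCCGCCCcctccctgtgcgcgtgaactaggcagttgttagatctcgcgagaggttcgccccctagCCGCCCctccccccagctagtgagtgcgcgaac
HNRNPU, chr1:244864544-244864693: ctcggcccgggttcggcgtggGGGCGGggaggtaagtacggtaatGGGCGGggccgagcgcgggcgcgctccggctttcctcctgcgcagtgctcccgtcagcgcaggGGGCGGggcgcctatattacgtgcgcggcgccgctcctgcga

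CCAAT was found in 4 of these 6 windows, those of HNRNPC, HNRNPA2B1, RBMX and the first of HNRNPK, and in 23.5% of 35116 RefSeq windows of the same length. In HNRNPC it occurred at 2 places, 1 of them on the other strand, whose last letters lay 50 and 115 bases before the start. GGGCGG was found in 3 windows, those of HNRNPC, HNRNPU and the second of HNRNPK, and in 36.8% of all windows. TATAAA was found only in the window of RBMX, ending 24 bases before the start, and in 6.71% of all windows. None of the 3 motifs overlapped another in these 6 windows.

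At the level of the whole gene, none of the 6 hnRNP genes passed the test after YTHDF3 knockdown. HNRNPA2B1, HNRNPK and HNRNPU had lower FPKM in both si-YTHDF3 libraries than in both NC libraries (0.884-fold to 0.903-fold by the fit), and HNRNPC, RBMX and HNRNPA1 overlapped between the groups. Among 14457 genes tested, 4 (0.0277%) passed the adjusted threshold, 2143 (14.8%) had an unadjusted p under 0.05, and 114 (0.789%) had such a p and at least a 2-fold difference, against 0 of the 6 under each of these rules. The si-YTHDF3 libraries were both below the lower NC library for 3 of the 6 genes and for 23.7% of all genes tested, and both above the higher one for 0 of the 6 and for 25.3% of all. The median log2 fold change was -0.10 over the 6 genes and 0.01 over all genes tested. In bulk RNA, fewer cells of a type and less RNA per cell cannot be told apart.

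HNRNPC (chromosome 14, 21209136 to 21269494) had 367.8 and 308.0 FPKM in si-YTHDF3 libraries, against 336.3 and 363.5 FPKM in NC libraries. The si-YTHDF3 libraries enclosed the NC libraries on both sides. The log2 fold change was -0.05 (SE 0.13, 95% interval -0.38 to 0.27, limma adjusted p = 0.867), and leaving out si-YTHDF3 replicate 2 gave 0.073, leaving out NC replicate 2 gave 0.00098. RBMX (chromosome X, 136848004 to 136880764) was the least abundant of the 6, with 55.8 and 60.2 FPKM in si-YTHDF3 libraries, against 51.9 and 55.8 FPKM in NC libraries. Its lower si-YTHDF3 library and its higher NC library met at the same rounded value. The log2 fold change was 0.11 (95% interval -0.20 to 0.41, adjusted p = 0.708), and -0.047 when transcripts were weighted by their length.

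HNRNPA2B1 (chromosome 7, 26189927 to 26201529) was the most abundant, with 977.5 and 992.9 FPKM in si-YTHDF3 libraries, against 1019 and 1169 FPKM in NC libraries. It averaged 985.2 ± 10.96 FPKM in si-YTHDF3 libraries and 1094 ± 106 FPKM in NC libraries (SD, n = 2 each), a 0.903-fold level with a 95% interval of 0.747 to 1.09 (limma adjusted p = 0.554). On the log2 scale this was -0.15, and it was -0.25 with NC replicate 1 left out and -0.048 with NC replicate 2 left out. The NC libraries were further apart than the lower of them was from the si-YTHDF3 libraries. HNRNPK (chromosome 9, 83968083 to 83980616) had 381.5 and 369.5 FPKM in si-YTHDF3 libraries, against 404.3 and 446.8 FPKM in NC libraries, a 0.884-fold level (95% interval 0.731 to 1.07, adjusted p = 0.479). HNRNPU (chromosome 1, 244840638 to 244864560) had 289.9 and 311.1 FPKM in si-YTHDF3 libraries, against 349.0 and 322.1 FPKM in NC libraries, a 0.896-fold level (95% interval 0.739 to 1.09, adjusted p = 0.530). In both genes all si-YTHDF3 libraries were below all NC libraries, and the interval included no change. With single libraries left out, the log2 fold change ran between -0.25 and -0.11 for HNRNPK and between -0.22 and -0.10 for HNRNPU.

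HNRNPA1 (chromosome 12, 54280193 to 54287088, plus strand) had 305.6 and 326.8 FPKM in si-YTHDF3 libraries, against 270.1 and 318.4 FPKM in NC libraries. The groups overlapped, and NC replicate 1 was the lowest library. The log2 fold change was 0.11 (95% interval -0.21 to 0.43, limma adjusted p = 0.711) and -0.011 without NC replicate 1.

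**Figure D1:**
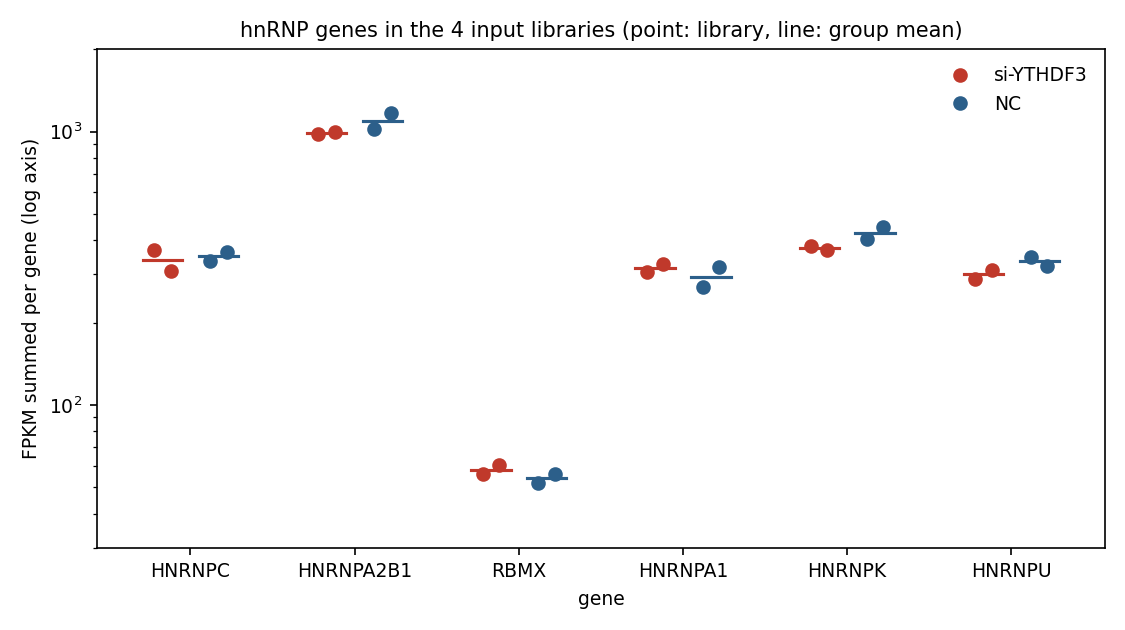
FPKM summed per gene (log axis) of the 6 hnRNP genes. Points are libraries, with si-YTHDF3 left of NC, and lines are group means. HNRNPA2B1, HNRNPK and HNRNPU show both si-YTHDF3 points below both NC points, and RBMX lies lowest at 51.9 to 60.2 FPKM.

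Because FPKM are scaled by length, levels can be set against each other between genes. HNRNPA2B1 was highest in each of the 4 libraries, at 977.5 FPKM or more, and ranked between 17 and 25 among the genes tested. HNRNPK followed at 369.5 to 446.8 FPKM, above HNRNPC in 4 of 4 libraries, although the lowest HNRNPK and the highest HNRNPC value (367.8 FPKM) were close. The ranges of HNRNPC, HNRNPU and HNRNPA1 over the 4 libraries overlapped, and HNRNPC exceeded HNRNPU in 2 of 4. HNRNPU exceeded HNRNPA1 in 2 of 4, the NC libraries, and was below it in both si-YTHDF3 libraries. RBMX came last and ranked between 1177 and 1369. The place of HNRNPA1 is uncertain, because its named copies, described further on, can hold its reads. With them added it would have 966.9 and 995.1 FPKM in si-YTHDF3 libraries, against 865.1 and 1011 FPKM in NC libraries, which is above HNRNPA2B1 in si-YTHDF3 replicate 2 and below it in the other 3. Together the 6 genes held 0.634% and 0.618% of all FPKM in si-YTHDF3 libraries, against 0.655% and 0.721% in NC libraries.

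At the level of transcripts, ENST00000556897 of HNRNPC had the lowest limma p-value of the 6 genes apart from that of ENST00000420743. The latter is not given, for the reason stated below. The total of HNRNPC overlapped between the groups. Of the 107 transcripts, 64 reached the mean of 1 FPKM and were tested, and 43 lower ones were not. None of the 64 passed the adjusted threshold, which 0 (0%) of 38284 transcripts passed in all. An unadjusted p under 0.05 was found for 6 of the 64 and for 7.21% of all transcripts tested, and 3 of the 64 combined it with at least a 2-fold difference, against 4.12% of all. The 3 were all transcripts of HNRNPC, the other 3 being 2 of HNRNPA2B1 and 1 of RBMX. Of the HNRNPC transcripts, ENST00000420743 and ENST00000556513 averaged below 1 FPKM in 1 group and reached the filter only through the other. The filter thus favoured a difference in both, so these counts are not read as a result. The p-values of both are not given. The libraries of the groups did not overlap for 23 of the 64 (11 lower and 12 higher in si-YTHDF3) and for 39.8% of all transcripts tested. When each transcript was set against its own gene, 3 of the 64, again the HNRNPC transcripts, had an unadjusted p under 0.05, against 5.83% of 35870 transcripts tested, and 0 (0%) of all passed the adjusted threshold. With a filter on the mean, a low transcript is tested only if 1 group lifts it above 1 FPKM, so these counts describe the tested transcripts and not all 107.

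The HNRNPC transcript ENST00000556897, coding and with 8 exons, had 26.4 and 23.4 FPKM in si-YTHDF3 libraries, against 146.4 and 152.4 FPKM in NC libraries. Libraries of a group lay close together and the groups were far apart. The log2 fold change was -2.54 (unadjusted p = 8.2e-05, limma adjusted p = 0.0869), and single libraries left out gave -2.63 to -2.46. It held 7.17% and 7.58% of the HNRNPC FPKM in si-YTHDF3 libraries, against 43.5% and 41.9% in NC libraries. Its annotated 5′ end, at position 21262677, lies 6765 bases downstream of the RefSeq start whose upstream sequence is printed above.

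ENST00000420743, a coding HNRNPC transcript with 11 exons that begins 17 bases downstream of the RefSeq start, had 50.1 and 78.8 FPKM in si-YTHDF3 libraries and was listed at 0 in both NC libraries. It held 13.6% and 25.6% of HNRNPC in si-YTHDF3 libraries. No fold is given against values of 0. No other of the 107 transcripts was at 0 throughout a group while reaching 1 FPKM in each library of the other group. How often this occurs over all transcripts was not determined, so it is not read as a result. ENST00000556513, a coding transcript with the same annotated 5′ end, had 1.16 and 0.765 FPKM in si-YTHDF3 libraries, against 7.74 and 5.55 FPKM in NC libraries. Both si-YTHDF3 libraries were below both NC libraries. It was named after its values were seen.

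Other HNRNPC transcripts differed between libraries of the same group. The retained-intron transcript ENST00000554417 had 184.2 and 84.3 FPKM in si-YTHDF3 libraries, against 78.4 and 107.7 FPKM in NC libraries, so si-YTHDF3 replicate 1 alone was high. The coding transcript ENST00000555914 had 58.0 and 0.821 FPKM in si-YTHDF3 libraries, against 49.4 and 44.1 FPKM in NC libraries, so si-YTHDF3 replicate 2 alone was low. The coding transcripts ENST00000555309, ENST00000555176 and ENST00000554383, singled out after their values were seen, showed the opposite, with si-YTHDF3 replicate 2 alone high. ENST00000555309 had 0.758 and 37.2 FPKM in si-YTHDF3 libraries, against 8.29 and 7.56 FPKM in NC libraries. ENST00000555176 had 1.22 and 19.2 FPKM in si-YTHDF3 libraries, against 0.365 and 0.182 FPKM in NC libraries. ENST00000336053, also coding and chosen likewise, was similar throughout, at 26.2 and 30.1 FPKM in si-YTHDF3 libraries, against 28.2 and 26.2 FPKM in NC libraries. In FPKM + 1, 6 of the 14 HNRNPC transcripts tested differed by over 2-fold between the si-YTHDF3 libraries and 0 between the NC libraries.

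**Figure D2:**
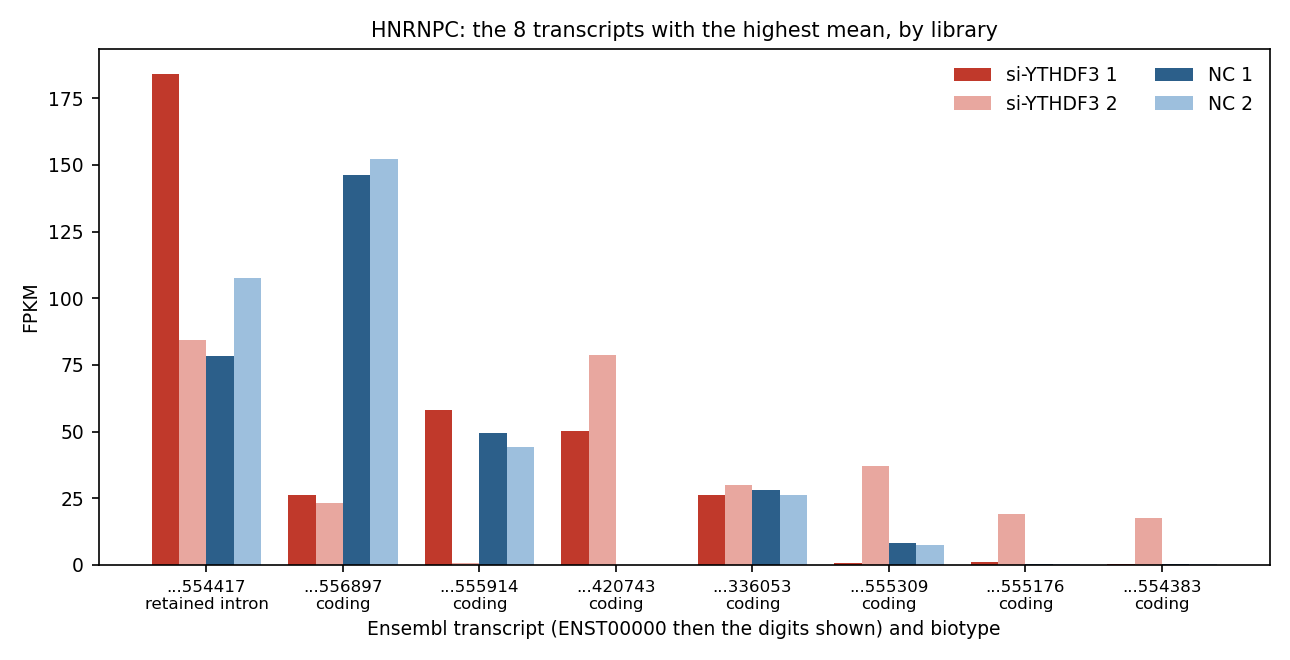
FPKM of the 8 HNRNPC transcripts with the highest mean over the 4 libraries, a bar for each library. ENST00000556897 is low in both si-YTHDF3 libraries, ENST00000420743 is present only there, and ENST00000554417, ENST00000555914 and ENST00000555309 differ between the si-YTHDF3 libraries themselves.

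Grouped by annotated 5′ end, a grouping made after these values were seen and given without a test, the 25 HNRNPC transcripts that begin within 100 bases of the RefSeq start had 147.7 and 177.2 FPKM in si-YTHDF3 libraries, against 105.1 and 95.5 FPKM in NC libraries. The 8 that begin elsewhere had 220.1 and 130.8 FPKM in si-YTHDF3 libraries, against 231.2 and 268.1 FPKM in NC libraries. The share of HNRNPC beginning at the RefSeq start was thus 40.2% and 57.5% in si-YTHDF3 libraries, against 31.2% and 26.3% in NC libraries. Of the sums near that start, ENST00000420743 alone made up 50.1 and 78.8 FPKM in si-YTHDF3 libraries and 0 in NC libraries. This HNRNPC share repeats the values of transcripts already described, this one among them, so it is not read as a further result. For RBMX the share ran the other way, with 66.2% and 55.5% in si-YTHDF3 libraries, against 73.3% and 71.8% in NC libraries. For HNRNPA2B1 it was 97.9% to 98.3% in every library. For HNRNPU it was 45.8% and 43.8% in si-YTHDF3 libraries, against 43.5% and 44.6% in NC libraries. For HNRNPK, counting both RefSeq starts, it was 60.6% and 64.5% in si-YTHDF3 libraries, against 54.7% and 73.7% in NC libraries, so that both HNRNPU and HNRNPK overlapped. These shares rest on how reads were divided among transcripts that overlap, which FPKM do not show.

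HNRNPA2B1 was dominated by the coding transcript ENST00000356674, with 891.9 and 911.5 FPKM in si-YTHDF3 libraries, against 923.9 and 1058 FPKM in NC libraries. This was 90.5% to 91.8% of the gene in every library. ENST00000360787, annotated as a target of nonsense-mediated decay (NMD), the pathway that removes RNA with a premature stop codon, had 38.7 and 36.8 FPKM in si-YTHDF3 libraries, against 48.1 and 53.2 FPKM in NC libraries (log2 fold change -0.41, unadjusted p = 0.040, limma adjusted p = 0.669). ENST00000618183, a long coding transcript of 3539 bases, had 4.12 and 3.94 FPKM in si-YTHDF3 libraries, against 5.91 and 6.24 FPKM in NC libraries (log2 fold change -0.49, unadjusted p = 0.048, adjusted p = 0.692). Both were lower in all si-YTHDF3 libraries and neither passed the adjusted threshold. The retained-intron transcript ENST00000463181 overlapped between groups, with 21.9 and 17.9 FPKM in si-YTHDF3 libraries, against 21.5 and 25.4 FPKM in NC libraries.

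In RBMX, the short coding transcript ENST00000419968, whose annotated 5′ end lies 1294 bases downstream of the RefSeq start, had 12.8 and 16.1 FPKM in si-YTHDF3 libraries, against 8.26 and 9.28 FPKM in NC libraries (log2 fold change 0.65, unadjusted p = 0.036, limma adjusted p = 0.651). Both si-YTHDF3 libraries were above both NC libraries. The NMD transcript ENST00000568578 had 18.7 and 14.3 FPKM in si-YTHDF3 libraries, against 17.6 and 20.3 FPKM in NC libraries. The full-length coding transcript ENST00000320676, which begins exactly at the RefSeq start, had 8.44 and 6.31 FPKM in si-YTHDF3 libraries, against 8.28 and 8.08 FPKM in NC libraries. These overlapped between groups, as did the processed transcript ENST00000496459, with 5.14 and 9.81 FPKM in si-YTHDF3 libraries, against 4.89 and 6.02 FPKM in NC libraries. RBMX thus had more FPKM in an NMD transcript than in any single coding transcript in 3 of the 4 libraries.

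In HNRNPA1 the coding transcript ENST00000340913 had 180.8 and 207.5 FPKM in si-YTHDF3 libraries, against 176.4 and 189.4 FPKM in NC libraries, or 59.2% to 65.3% of the gene. The coding transcripts ENST00000550482 and ENST00000546500 held 10.5% to 12.0% and 8.45% to 8.90%. The short coding transcript ENST00000547708 had 9.97 and 10.7 FPKM in si-YTHDF3 libraries, against 6.22 and 9.17 FPKM in NC libraries. The NMD transcript ENST00000547566 had 9.48 and 9.20 FPKM in si-YTHDF3 libraries, against 6.19 and 8.11 FPKM in NC libraries. ENST00000550994, named after its values were seen, differed within both groups, with 13.99 and 6.05 FPKM in si-YTHDF3 libraries, against 5.07 and 16.3 FPKM in NC libraries. For ENST00000547708 and ENST00000547566 the si-YTHDF3 libraries were above the NC libraries, with an unadjusted p of 0.181 for ENST00000547708 and 0.164 for ENST00000547566 (limma).

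HNRNPK divided its FPKM between 2 main coding transcripts whose balance differed between the NC libraries. ENST00000360384, which begins 35 bases upstream of the nearer RefSeq start, had 156.7 and 165.8 FPKM in si-YTHDF3 libraries, against 148.8 and 252.8 FPKM in NC libraries. ENST00000351839, which begins 1763 bases downstream of it, had 126.9 and 104.7 FPKM in si-YTHDF3 libraries, against 148.4 and 90.9 FPKM in NC libraries. In both, the NC libraries lay on either side of the si-YTHDF3 libraries. The third coding transcript, ENST00000457156, was steady at 8.61% to 9.16% of the gene. The NMD transcript ENST00000472778, which begins 1 base from the more upstream RefSeq start, had 22.5 and 28.0 FPKM in si-YTHDF3 libraries, against 20.8 and 13.6 FPKM in NC libraries (log2 fold change 0.55, limma adjusted p = 0.780).

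HNRNPU showed differences between libraries that cut across the groups. The coding transcript ENST00000283179 had 0.698 and 37.3 FPKM in si-YTHDF3 libraries, against 41.7 and 0.823 FPKM in NC libraries. The retained-intron transcript ENST00000638952 had 0.655 and 24.4 FPKM in si-YTHDF3 libraries, against 26.2 and 0.661 FPKM in NC libraries. The coding transcript ENST00000638475 had 0.603 and 15.0 FPKM in si-YTHDF3 libraries, against 10.0 and 0.806 FPKM in NC libraries. ENST00000444376, also coding, had 0.189 and 9.96 FPKM in si-YTHDF3 libraries, against 4.30 and 0.594 FPKM in NC libraries. All 4 were high in si-YTHDF3 replicate 2 and NC replicate 1 and below 1 FPKM in the other library of each group. The first 2 of them were singled out after their values were seen.

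The retained-intron transcript ENST00000476241 of HNRNPU went the other way, with 108.1 and 55.4 FPKM in si-YTHDF3 libraries, against 65.0 and 114.3 FPKM in NC libraries. The coding transcript ENST00000483966 had 78.2 and 102.8 FPKM in si-YTHDF3 libraries, against 129.8 and 78.2 FPKM in NC libraries. The NMD transcript ENST00000640056 had 21.2 and 26.5 FPKM in si-YTHDF3 libraries, against 21.6 and 43.6 FPKM in NC libraries. In FPKM + 1, 6 of the 15 HNRNPU transcripts tested differed by over 2-fold between the si-YTHDF3 libraries and 6 between the NC libraries. Over all transcripts tested and on the same scale, 16.3% differed by over 2-fold between the si-YTHDF3 libraries and 18.1% between the NC libraries.

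**Figure D3:**
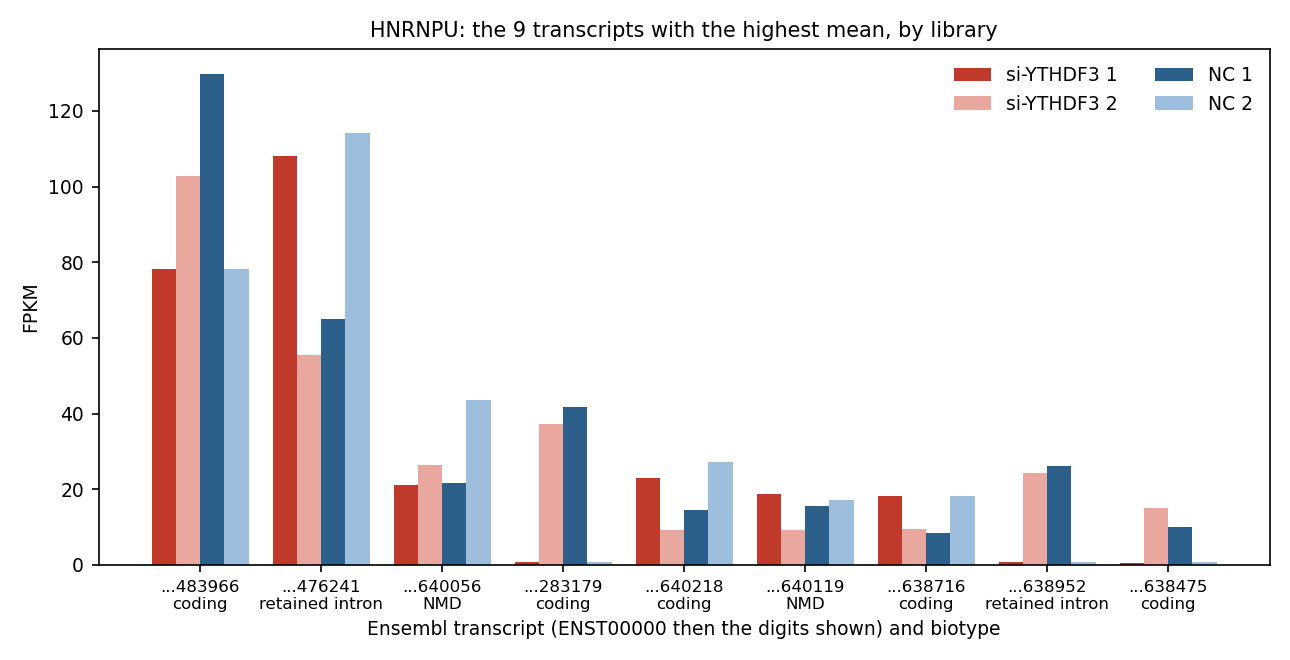
FPKM of the 9 HNRNPU transcripts with the highest mean over the 4 libraries, a bar for each library. ENST00000283179, ENST00000638952 and ENST00000638475 are high in si-YTHDF3 replicate 2 and NC replicate 1 only, and ENST00000476241 is higher in the other pair of libraries.

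By annotated class, given as a share of the gene's FPKM without a test, coding transcripts made up 92.1% and 92.4% of HNRNPA2B1 in si-YTHDF3 libraries, against 91.4% in both NC libraries. Its NMD transcript made up 3.96% and 3.70% in si-YTHDF3 libraries, against 4.72% and 4.55% in NC libraries, which did not overlap. The NMD transcript of HNRNPK held 5.90% and 7.58% in si-YTHDF3 libraries, against 5.15% and 3.05% in NC libraries, and that of HNRNPA1 held 3.10% and 2.82% in si-YTHDF3 libraries, against 2.29% and 2.55% in NC libraries. In RBMX the NMD class held 37.7% and 24.1% in si-YTHDF3 libraries, against 38.6% and 41.1% in NC libraries, and in HNRNPC 0.706% and 0.557% in si-YTHDF3 libraries, against 0.390% and 0.316% in NC libraries. The NMD share was thus lower in both si-YTHDF3 libraries for HNRNPA2B1 and RBMX, higher for HNRNPC, HNRNPK and HNRNPA1, and overlapping for HNRNPU. For HNRNPC this class was 1 transcript at 1.15 to 2.60 FPKM. How often such shares do not overlap over all genes was not determined. In FPKM, the groups did not overlap for 39.8% of all transcripts tested, so this tally is not read as a result. In HNRNPC retained-intron transcripts held 51.4% and 27.8% in si-YTHDF3 libraries, against 24.2% and 31.1% in NC libraries, so that replicate 1 of si-YTHDF3 stood apart. In HNRNPU the coding share was 43.3% and 59.9% in si-YTHDF3 libraries, against 60.7% and 40.8% in NC libraries.

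**Figure D4:**
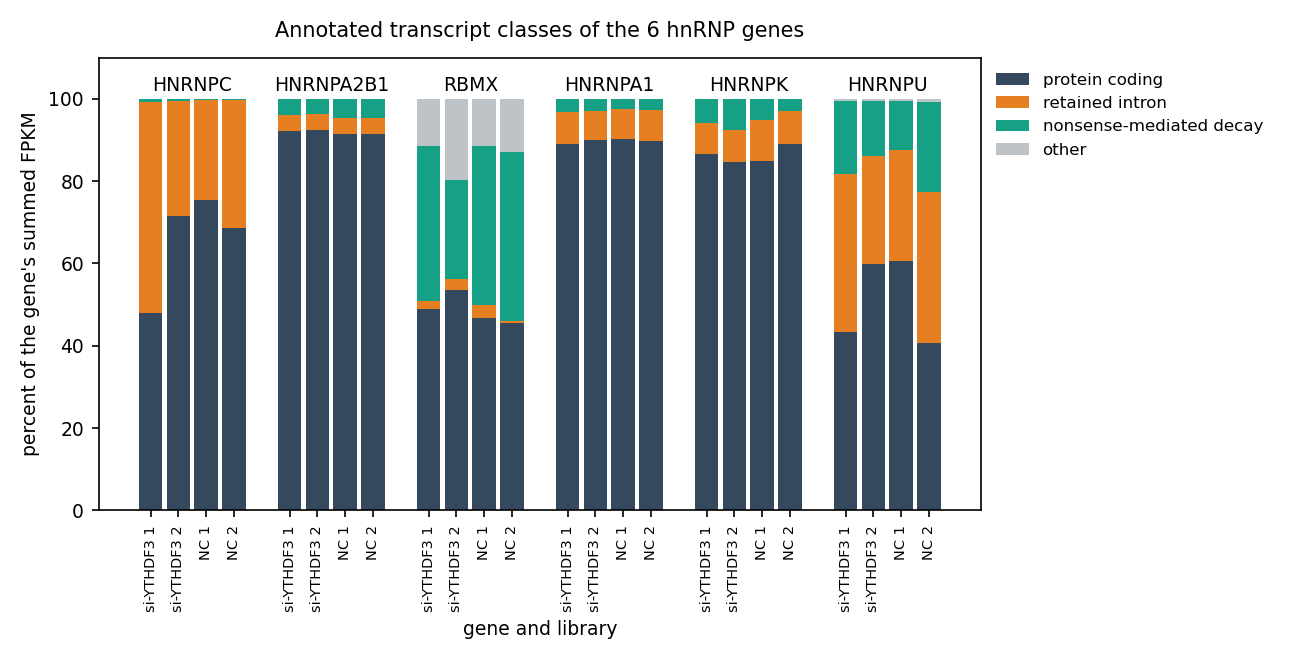
Percent of each gene's summed FPKM in protein coding, retained intron, nonsense-mediated decay and other transcripts, a bar for each library with si-YTHDF3 left of NC. HNRNPA2B1 has 91.4% to 92.4% coding and HNRNPA1 89.0% to 90.2%, HNRNPC has 51.4% retained intron in si-YTHDF3 replicate 1, and HNRNPU alternates between the libraries of each group.

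Of 23 other hnRNP genes, all tested, 0 rose and 0 fell at the adjusted threshold, 5 had an unadjusted p under 0.05 (14.8% of all genes tested did), and the median log2 fold change was -0.07, which was 0.0025 without NC replicate 2. In 7 both si-YTHDF3 libraries were below both NC libraries and in 4 above, against 23.7% below and 25.3% above over all genes tested. PTBP3, a paralog of the splicing repressor PTBP1, had 15.2 and 14.5 FPKM in si-YTHDF3 libraries, against 21.9 and 22.2 FPKM in NC libraries (log2 fold change -0.55, limma adjusted p = 0.214). HNRNPM, a splicing regulator, had 205.2 and 189.2 FPKM in si-YTHDF3 libraries, against 138.3 and 159.5 FPKM in NC libraries (log2 fold change 0.41, adjusted p = 0.280). HNRNPA3, a close relative of HNRNPA2B1, had 100.5 and 100.3 FPKM in si-YTHDF3 libraries, against 118.2 and 133.7 FPKM in NC libraries, with a log2 fold change of -0.32 (adjusted p = 0.320). SYNCRIP, a relative of HNRNPR that binds cytoplasmic and nuclear mRNA, had 117.6 and 106.7 FPKM in si-YTHDF3 libraries, against 137.2 and 139.8 FPKM in NC libraries, with a log2 fold change of -0.30 (adjusted p = 0.325). PCBP2, a poly(C)-binding relative of HNRNPK, was the fifth, with a log2 fold change of 0.30. Each of these 5 differed without overlap between the groups, and none passed the adjusted threshold. They are the 5 with an unadjusted limma p under 0.05 in the same libraries, so the lack of overlap adds no support.

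**Figure D5:**
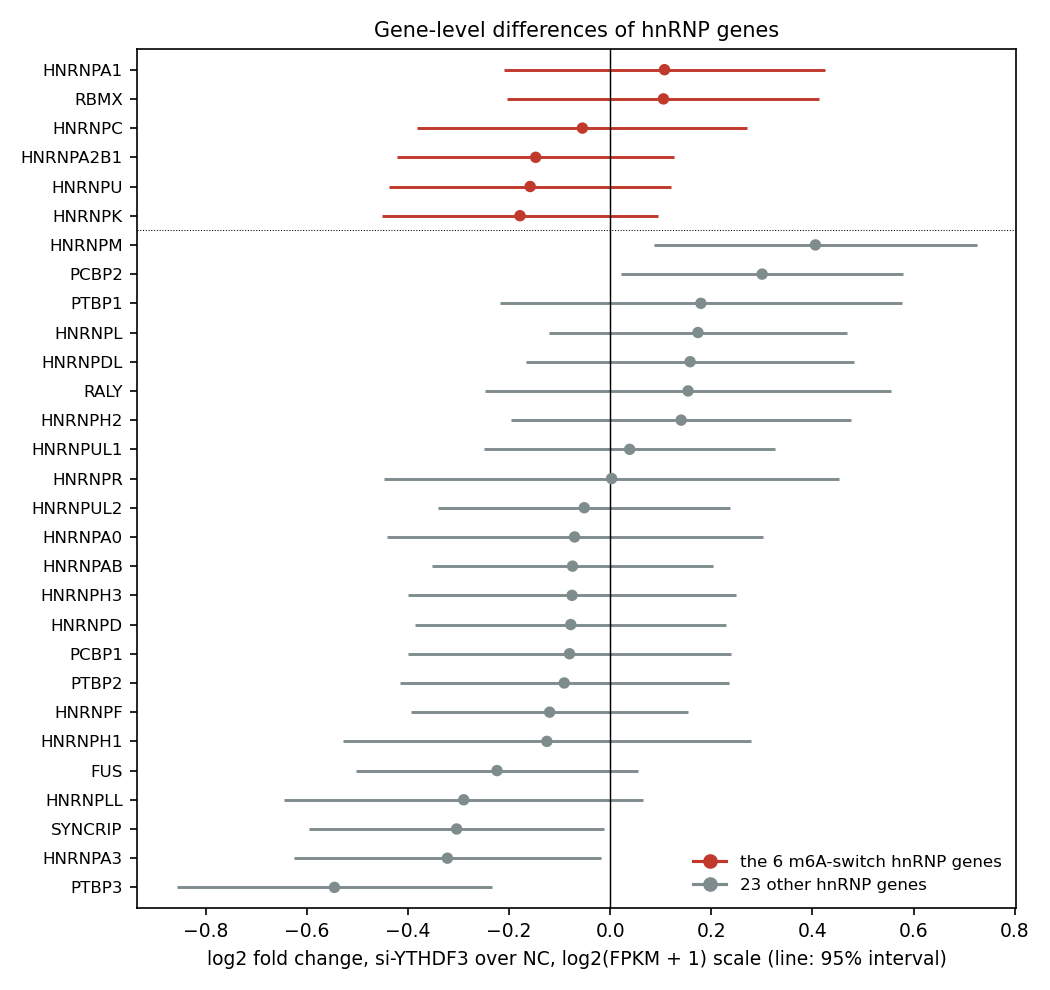
Log2 fold change (of FPKM + 1, si-YTHDF3 over NC) with its 95% interval (line) for the 6 hnRNP genes described here (red) and 23 other hnRNP genes (grey). All 6 red intervals include 0, with points between -0.18 and 0.11, and the grey points run between -0.55 and 0.41.

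A list of 7 partner genes held those that make or read m6A, process primary microRNAs or carry an m6A switch. Among them 0 rose and 0 fell at the adjusted threshold. Their median log2 fold change was -0.07, or -0.18 when NC replicate 1 was left out and 0.02 when NC replicate 2 was. METTL3, the catalytic subunit of the m6A writer, had 23.7 and 24.3 FPKM in si-YTHDF3 libraries, against 19.4 and 19.98 FPKM in NC libraries (log2 fold change 0.27, limma adjusted p = 0.369). METTL14, its partner, had 13.3 and 9.47 FPKM in si-YTHDF3 libraries, against 9.46 and 15.1 FPKM in NC libraries. WTAP, which holds the writer in nuclear speckles, had 43.5 and 37.5 FPKM in si-YTHDF3 libraries, against 44.8 and 48.6 FPKM in NC libraries (log2 fold change -0.20, limma adjusted p = 0.512), and the log2 fold change ran between -0.31 and -0.10 when either si-YTHDF3 library was left out. YTHDC1, the nuclear YTH reader, had a log2 fold change of -0.07, and DGCR8 and DROSHA, which together process primary microRNAs, had -0.0054 and 0.07. The sign of METTL14, YTHDC1, DGCR8 and DROSHA depended on which library was left out.

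MALAT1, a nuclear lncRNA that carries a well-studied m6A switch bound by HNRNPC, had 43.9 and 32.5 FPKM in si-YTHDF3 libraries, against 51.8 and 55.4 FPKM in NC libraries (log2 fold change -0.49, unadjusted p = 0.032, limma adjusted p = 0.308). Both si-YTHDF3 libraries were lower, with -0.28 on the log2 scale when si-YTHDF3 replicate 2 was left out. A separate entry of the same name, a single transcript of 95 bases inside it, had 0.161 and 0.211 FPKM in si-YTHDF3 libraries, against 129.6 and 0.190 FPKM in NC libraries, so NC replicate 1 alone set it, and it was kept out of the sum.

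Copies of the members can take reads from them, and the values of HNRNPA1 in particular are uncertain for this reason. Its 53 named copies together had 661.3 and 668.4 FPKM in si-YTHDF3 libraries, against 595.1 and 692.9 FPKM in NC libraries, which was 205% to 220% of the HNRNPA1 value in each library. HNRNPA1P7 had 225.5 and 211.7 FPKM in si-YTHDF3 libraries, against 207.9 and 229.0 FPKM in NC libraries. HNRNPA1P48 had 194.7 and 233.7 FPKM in si-YTHDF3 libraries, against 184.9 and 214.1 FPKM in NC libraries. HNRNPA1P10 had 160.5 and 147.8 FPKM in si-YTHDF3 libraries, against 139.1 and 167.9 FPKM in NC libraries. The groups overlapped in each of these 3. The retrogene HNRNPA1L2 had 39.3 to 44.5 FPKM, and HNRNPA1P35, HNRNPA1P8, HNRNPA1P4, HNRNPA1P16, HNRNPA1P49 and HNRNPA1P39 had 1.22 to 14.4 FPKM. Copies of HNRNPC had 6.54% to 9.81% of its FPKM, mostly in HNRNPCP2, with HNRNPCP1 at 1.15 to 1.82 FPKM. Copies of RBMX had 9.10% to 13.3%, mostly in RBMXL1, and those of HNRNPK and HNRNPU 0.0503% to 0.266%. HNRNPA2B1 had no named copy.

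CBX3, a heterochromatin protein gene that adjoins HNRNPA2B1, had 125.1 and 104.5 FPKM in si-YTHDF3 libraries, against 131.5 and 162.4 FPKM in NC libraries (log2 fold change -0.35, limma adjusted p = 0.374). RMI1, a genome stability gene that adjoins HNRNPK, had 18.6 and 14.4 FPKM in si-YTHDF3 libraries, against 19.8 and 22.6 FPKM in NC libraries (log2 fold change -0.35, adjusted p = 0.399). Both were lower in all si-YTHDF3 libraries, as were the hnRNP genes beside them and 23.7% of all genes tested. With single libraries left out, the log2 fold change ran between -0.50 and -0.20 for CBX3, nearest to 0 without NC replicate 2, and between -0.52 and -0.17 for RMI1, nearest to 0 without si-YTHDF3 replicate 2. HNRNPU-AS1, antisense to HNRNPU, had no row of its own and was not analysed here. Reads of overlapping genes cannot be told apart where strand is not kept, and whether it was is not given in the sources used here.

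Likeness was measured as the root mean square difference of log2(FPKM + 1), centred over the 4 libraries, against 1434 other genes with a mean of at least 50 FPKM. With so few libraries it is a description of these values only. The nearest genes were POLR2B for HNRNPC (0.0115), HMGN1 for HNRNPA2B1 (0.0193), the pseudogene EEF1A1P6 for RBMX (0.0129), the pseudogene PPIAP22 for HNRNPA1 (0.0229), FUBP1 for HNRNPK (0.00435) and NOP2 for HNRNPU (0.00889). FUBP1 had 95.8 and 92.5 FPKM in si-YTHDF3 libraries, against 100.8 and 112.4 FPKM in NC libraries. It was picked by likeness over these same values, so its sharing the library order of HNRNPK adds nothing further.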

How the data were processed

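HCT116 cells received siRNA, and total RNA was fragmented and sequenced on an Illumina NovaSeq instrument before or after m6A precipitation. Titles of the samples gave group and replicate number. The deposited values are the authors' FPKM of Ensembl transcripts in the 4 input libraries, on GRCh38 per the submitters' processing notes. For aligner and quantifier the entry is "not given in the sources used here". That table also holds the authors' fold changes, p-values and q-values, and a further list holds differential m6A peaks without values per library. Neither was used.

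FPKM were summed per gene, with pseudocount 1 and a filter at a mean of 1 FPKM, and tested with limma 3.58.1 under R 4.3.3 (lmFit, then eBayes with a trend on the mean). Figures were drawn with matplotlib 3.10.9. Usage is log2(transcript FPKM + 1) minus log2(gene FPKM + 1). Sequences are from RefSeq GRCh38.p14.

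The members and lists were chosen with earlier results of these data known. Named transcripts are, per gene, the 3 with the highest mean, the 3 with the largest difference in share between group means, any at 0 in 1 group and at 1 FPKM or more in the other, and any past the adjusted threshold. Named as well are the 4 other hnRNP genes with the largest absolute log2 fold change, all partners and neighbours, copies at a mean of 1 FPKM, and the nearest gene by likeness. Alternatives changed the pseudocount, filter, scaling, block, summing and libraries used. A marker of other cell types is not reported here.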

Additional observations from a re-analysis of the deposited data

How the results depend on the processing

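Of 66 recomputed log2 fold changes of the 6 genes, 62 kept their direction and 4 reversed, and none passed the adjusted threshold. Without single libraries HNRNPC ran between -0.18 and 0.073 (0.073 without si-YTHDF3 replicate 2, 0.00098 without NC replicate 2), and HNRNPA1 between -0.011 and 0.23, with its lowest value without NC replicate 1. RBMX was -0.047 with length-weighted sums. Among the partners, METTL14 ran between -0.40 and 0.23 without single libraries, YTHDC1 between -0.18 and 0.038, DGCR8 between -0.044 and 0.033 and DROSHA between -0.053 and 0.20. The median of the other hnRNP genes was 0.0025 without NC replicate 2, and that of the partners 0.02 (-0.18 without NC replicate 1). YTHDF3 was -1.74 (limma adjusted p = 0.0251) without NC replicate 1 and -2.80 (0.00421) without NC replicate 2.

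Whether same-numbered libraries were prepared together is not stated. Their deviations correlated at -0.112 over genes and -0.014 over transcripts, which shows no shared deviation but cannot settle whether they were paired. With the replicate block, 132 genes passed the adjusted threshold, against 4 without it, 153 against 114 had an unadjusted p under 0.05 with 2-fold, and 0 transcripts passed. None of the 6 genes passed with the block, and YTHDF3 did (adjusted p = 3.1e-04). A crossed pairing, chosen after seeing the data, gave 0 genes and 0 transcripts past the adjusted threshold. The count of genes past that threshold was 0 with no filter, 15 with a filter at 5 FPKM and 0 to 67 without single libraries. The count of genes at an unadjusted p under 0.05 with 2-fold was 247 with a pseudocount of 0.1 and 175 to 250 without single libraries. For transcripts that count was 1576, and it was 487 with a filter at 5 FPKM and 2399 to 2917 without single libraries. With a library left out, the lone library of a group is assumed to vary like the other group. The causes were not tested. Depth is unknown, so what it limits cannot be given.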
